A study of Mus musculus with 18 samples.

Results

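The serine/arginine-rich (SR) splicing factor genes were followed through RNA-seq libraries of RAW264.7 cells, a murine macrophage line, and of livers of male C57BL/6 mice. The genes taken were Srsf1, Srsf2, Srsf3, Srsf4, Srsf5, Srsf6, Srsf7, Srsf9 and Srsf11, which make up 9 of the 21441 gene rows in each of the macrophage and liver tables. They were found by symbol, and the set was built around Srsf3 because it had the largest fall with lipopolysaccharide (LPS) in the macrophages. The set was thus chosen by the measured FPKM difference between LPS and Control macrophages. The values of that contrast are given below as a description, without a test, for all 9 genes, and those of Srsf3 are treated so in every macrophage comparison.

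The 18 libraries fell into 6 groups of 3. Liver came from control mice that received the vehicle (10% DMSO) and saline, from mice injected intraperitoneally with 10 mg/kg LPS, the endotoxin of Gram-negative bacteria, and from mice gavaged with 80 mg/kg moringa isothiocyanate-1 (MIC-1), the main isothiocyanate of Moringa oleifera seeds, for 3 days before the same LPS injection. Livers were collected 16 h after the injection. The macrophages were solvent controls, LPS-treated cells and cells given LPS together with MIC-1. For the cells, the sample labels repeat the mouse doses whereas the series design gives 10 uM MIC-1, and the LPS dose and duration of the sequenced cultures are not given in the sources used here. No group received MIC-1 alone, so the effect of MIC-1 was measured only on top of LPS. The age of the mice is not given. Each liver library was of a separate mouse, so that the liver spread is between animals. For the macrophages the sources used here do not say whether the 3 libraries of a group were separate cultures, and their p-values measure only the spread between these libraries, which may be technical.

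SR proteins carry RNA recognition motifs followed by a stretch of arginine-serine repeats. They bind exonic enhancers in pre-mRNA, recruit the U1 and U2 machinery to splice sites, and several of them also take part in 3' end formation and mRNA export. Kinases of the Srpk and Clk families phosphorylate the arginine-serine repeats. The family holds its own level in check, since many SR transcripts can include an exon, or keep an intron, that brings in an early stop codon and sends the transcript to nonsense-mediated decay. Heterogeneous nuclear ribonucleoproteins (hnRNPs) often act against SR proteins at the same exons.

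In the mm9 annotation (GENCODE M1) the genes are spread over 7 chromosomes. Srsf1 lies at chr11:87860875-87867257 and Srsf2 at chr11:116711215-116714408. Srsf3 lies at chr17:29169618-29180311 and Srsf7, its paralog with a zinc knuckle, at chr17:80599429-80606629. Srsf4 is at chr4:131429532-131457640, Srsf5 at chr12:82046491-82051494, Srsf6 at chr2:162757264-162762857, Srsf9 at chr5:115777186-115783089 and Srsf11 at chr3:157673437-157699603. Transcripts annotated as targets of nonsense-mediated decay are listed for Srsf1 (2), Srsf2 (1), Srsf3 (1), Srsf5 (2) and Srsf11 (3), and not for the other 4 genes in that release.

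The Srsf3 protein is known to promote inclusion of a cassette exon of its own transcript, and that exon is shown because the gene has rows under 2 symbols whose balance differed between the groups. It spans 456 bases, chr17:29176399-29176854 on the plus strand of mm9. Reading into it from the preceding coding exon meets a stop codon within its first 34 bases, chr17:29176399-29176432, printed here with the stop codon in capitals.
Srsf3 cassette exon, coding part: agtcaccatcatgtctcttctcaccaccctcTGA

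The bases before the annotated start of Srsf3 and of Srsf6 are shown because these genes had the lowest and one of the lowest levels relative to control in the LPS-treated macrophages and differed in the promoter motifs searched. Both are from RefSeq (GRCm38.p6), 250 bases each on the plus strand, at chr17:29032410-29032659 for Srsf3, where the noncoding gene Gm16196 is also annotated, and at chr2:162931258-162931507 for Srsf6. Capitals mark matches, on either strand, to the TATA box (TATAAA), the CCAAT box and the GC box (GGGCGG).
Srsf3 promoter: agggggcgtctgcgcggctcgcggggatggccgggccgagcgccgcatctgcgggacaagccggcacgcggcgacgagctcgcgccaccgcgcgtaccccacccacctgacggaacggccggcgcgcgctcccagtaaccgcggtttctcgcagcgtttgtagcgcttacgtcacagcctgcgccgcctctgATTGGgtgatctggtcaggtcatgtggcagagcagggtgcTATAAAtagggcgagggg
Srsf6 promoter: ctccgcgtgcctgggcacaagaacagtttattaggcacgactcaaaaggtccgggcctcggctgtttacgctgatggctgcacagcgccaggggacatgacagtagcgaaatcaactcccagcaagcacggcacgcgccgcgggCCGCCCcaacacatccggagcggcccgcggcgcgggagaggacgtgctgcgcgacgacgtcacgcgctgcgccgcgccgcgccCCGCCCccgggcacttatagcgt

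The Srsf3 window holds TATAAA near its 3' end and a CCAAT box on the minus strand, and no GGGCGG. The Srsf6 window holds GGGCGG on the minus strand at 2 places. All 9 genes matched the promoter table (12 entries), and 5 motifs were searched on both strands of the 250 bases before each start. GGGCGG was found in 8 of the 9 genes, all but Srsf3, against 32.7% of 32851 mouse promoters. TATAAA was found in 2 genes, Srsf2 and Srsf3 (12.4% of promoters), and CCAAT in the same 2 genes (33.8%). TGANTCA, the AP-1 motif, and the NF-kB consensus matched in 0 of the 9 genes and in 6.75% and 7.25% of promoters. A match describes letters only, and none of these windows was measured for binding.

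Values are FPKM, fragments per kilobase of transcript scaled for sequencing depth, as the authors deposited them, so levels are per length and can be set side by side between genes. Differences are on the log2(FPKM + 0.5) scale. Libraries are numbered 1 to 3 within a group in the order of the table, since its columns carry the group but no replicate number. Estimated depth was 18.1 to 23.4 M reads in macrophages and 4.63 to 19.3 M in liver, where each of the 3 controls (4.63 to 10.7 M) was shallower than every treated library. The Srsf3 row then rests on an estimated 5150 to 7110 reads in the macrophage controls and on 108 and 76.3 reads in LPS libraries 1 and 3. Macrophage LPS library 2 stood at the level of the controls. Its log2 values differed from the control mean with an SD of 0.318 over genes, against 1.26 for each of the other LPS libraries, and 14 LPS response genes had a median log2 difference from control of 0.69 in it, against 4.31 in each of the others and 0.65 in Control 2. The study describes fewer LPS replicates in its macrophage analysis than the table holds, without naming the one left out. Macrophage results are therefore given with and without that library. In liver, library 2 of LPS (SD 1.04 and 1.03 to the others) and library 2 of LPS+MIC-1 (0.82 and 0.844) stood apart from libraries 1 and 3, which lay closer together (0.451 and 0.467). Across the groups, these library 2 samples lay nearest to each other (0.737). LPS library 2 also lay nearer to LPS+MIC-1 libraries 1 and 3 (0.91 and 0.926) than to the others of its own group.

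The macrophage and hepatocyte marker lists matched the labelled cell types. In the macrophage table the 7 macrophage marker genes with a row summed to 11000 to 13500 FPKM in every library. Lyz2 made up most of this, at 8730 to 10700 FPKM. Emr1, Csf1r, Itgam, Cd14 and Fcgr1 were at 37.2 FPKM or more in every library, while Mrc1 was at 0.0786 to 0.428. The T or NK cell and B cell lists summed to under 1. Hnf4a, the hepatocyte regulator, was at 0 in all 9, while the hepatocyte list summed to 16.7 to 55.3 FPKM, mostly Ass1. The cholangiocyte list summed to 14400 to 33000 FPKM in these cells, carried by Spp1. In liver the hepatocyte list summed to 35200 to 85400 FPKM. Markers of other cells differed between the groups there. The neutrophil list went from sums of 36.3 to 52.2 in the controls to 328 to 410 under LPS and 178 to 433 under LPS+MIC-1. S100a8 made up most of the sums in the treated libraries, and Mpo and Elane were under 3 FPKM throughout. S100a9 was at 0 to 0.448 FPKM in the controls and 20.5 to 60.1 in the treated libraries. Ngp was at 0 to 1.18 and 6.62 to 54.5, and Camp at 0 to 0.471 and 0.83 to 7.85. Cxcr2, the receptor that made up most of the control sums, went the other way, from 26.5 to 42.6 FPKM in the controls to 3.89 to 10.1 and 3.59 to 7.79. The macrophage list sums were 33.3 to 50.3, 135 to 628 and 132 to 440, with Cd14 at 3.49 to 10.8 FPKM in the controls and 56.7 to 569 in the treated libraries, while Csf1r overlapped between the groups. The Kupffer cell list summed to 31.1 to 56.3, 42.5 to 60.3 and 63.4 to 106 FPKM in Control, LPS and LPS+MIC-1, the T or NK cell list to 11.9 to 16.9, 4.29 to 7.98 and 4.78 to 6.90, and the B cell list to 4.25 to 4.57, 0.315 to 1.49 and 0.406 to 2.11. Within these lists Clec4f was at 13.0 to 30.1 FPKM in the controls and 2.85 to 6.32 in the treated libraries, Vsig4 at 3.02 to 6.70 and 0.647 to 1.72, Cd3d at 9.16 to 13.1 and 0.886 to 5.17, and Cd79a at 2.42 to 3.57 and 0.226 to 1.02, while Marco was at 2.18 to 6.79 and 23.1 to 75.6. For each of these 5 genes the controls and the treated libraries did not overlap. The share of all genes without such overlap is not given here. The other genes of the T or NK cell list did overlap, and Nkg7 ran higher, at 0.519 to 1.59 FPKM in the controls and 1.58 to 3.35 in the treated libraries. In the Kupffer cell list Timd4 and Cd5l overlapped, and Clec1b was at 1.87 to 5.57 in the controls and 5.59 to 12.5 in the treated libraries. The part of such cells in the liver results was not tested, and in whole liver fewer cells of a type cannot be told apart from less RNA per cell.

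In control macrophages Srsf3, which couples splicing to polyadenylation and acts as an adaptor for the export receptor Nxf1, was among the more abundant SR genes. Its FPKM was 122, 95.9 and 122 in Control 1 to 3, 3.18, 91.9 and 2.12 in LPS 1 to 3, and 22.2, 46.3 and 24.0 in LPS+MIC-1 1 to 3. LPS libraries 1 and 3 lay far below every other macrophage library, and LPS library 2 lay just below the lowest control. The means were 113 ± 14.9, 32.4 ± 51.5 and 30.8 ± 13.4 FPKM (SD, n = 3). Without LPS library 2 the LPS mean was 2.65 ± 0.75 (n = 2), 42.7-fold below the control mean, and the LPS+MIC-1 mean lay 11.6-fold above it and below the controls.

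On the log2 scale the LPS minus Control difference of Srsf3 was -3.55 with all 9 libraries and -5.18 without LPS library 2, the lowest of the 9905 genes tested in both cases. The genes next in rank were mitosis genes. Plk1, a mitotic kinase, stood at -3.07, Cdc20, an activator of the anaphase-promoting complex, at -3.07 and the cyclin Ccnb2 at -3.03, and without LPS library 2 Plk1 stood at -4.57. These values chose the gene and are not a test of it.

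The table also holds a row under Sfrs3, the older symbol of the same gene, with the opposite pattern. Sfrs3 had 7.34, 10.2 and 8.87 FPKM in the controls, 18.9, 10.6 and 21.3 under LPS and 16.6, 11.9 and 15.4 under LPS+MIC-1. LPS libraries 1 and 3 were its highest values and the controls its lowest. The Srsf3 row thus made up 94.3, 90.4 and 93.2% of the summed rows in the controls, 14.4, 89.7 and 9.06% under LPS and 57.2, 79.6 and 60.9% under LPS+MIC-1. Which transcripts each row holds is not given in the sources used here, and the annotation of this gene contains 1 protein-coding transcript, 1 that is a target of nonsense-mediated decay and 3 with a retained intron.

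Added together, the rows of both symbols gave 129, 106 and 131 FPKM in the controls, 22.1, 103 and 23.4 under LPS and 38.8, 58.2 and 39.5 under LPS+MIC-1. LPS libraries 1 and 3 remained the lowest, at 5.36-fold below the control mean against 42.7-fold for the Srsf3 row alone. The summed log2 difference for LPS minus Control was -1.67 with 9 libraries. For LPS+MIC-1 the summed mean lay 2.0-fold above LPS libraries 1 and 3, against 11.6-fold for the Srsf3 row. The plot of both rows gives these values library by library.

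**Figure D1:**
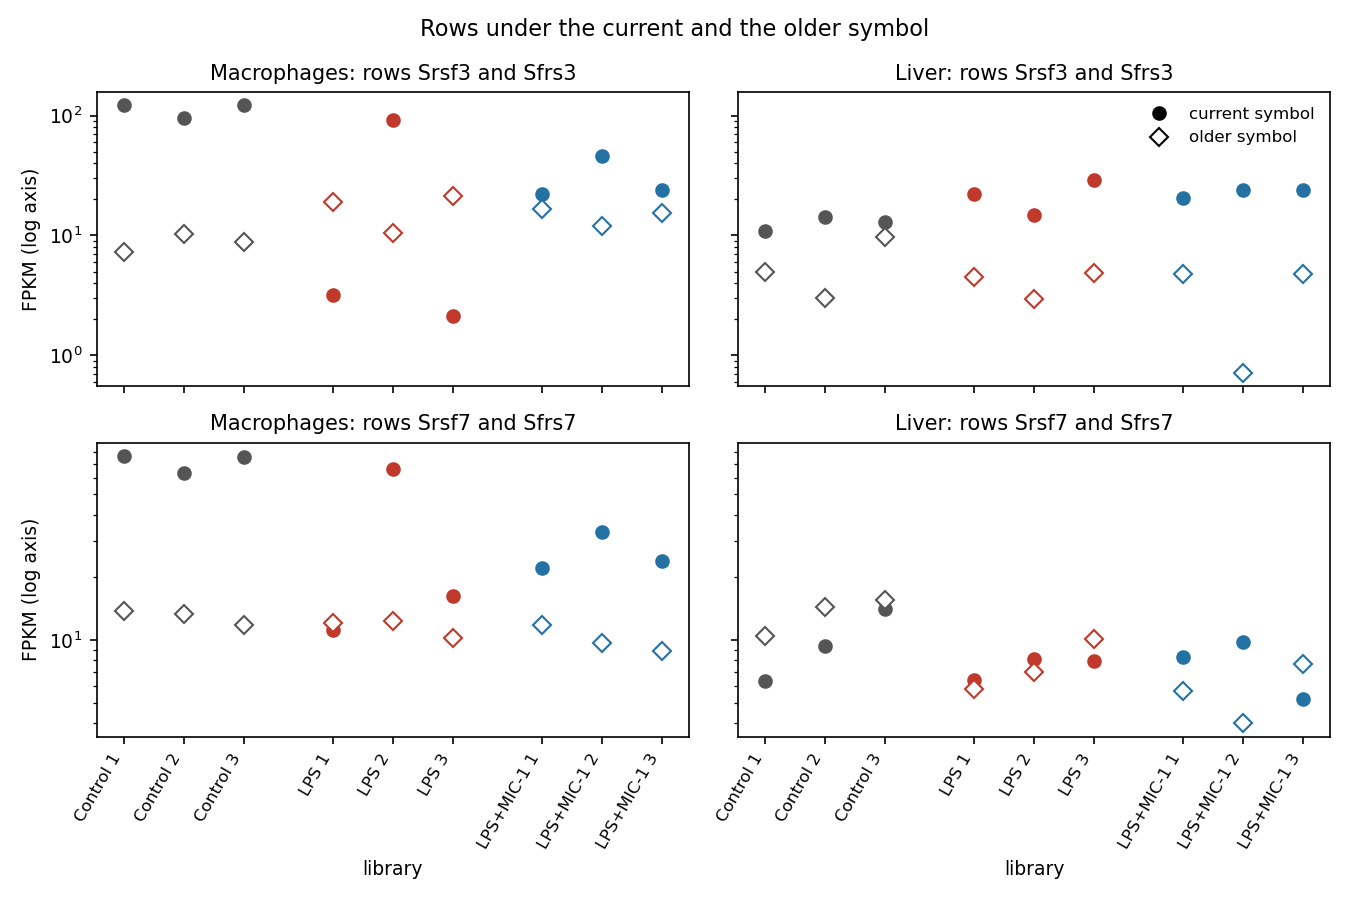
FPKM of the rows under the current symbols (Srsf3, Srsf7) and the older symbols (Sfrs3, Sfrs7) in each macrophage and liver library, on a log axis. In macrophages the Srsf3 row sits at 3.18 and 2.12 FPKM in LPS libraries 1 and 3 where the Sfrs3 row sits at 18.9 and 21.3.

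Srsf7, which like Srsf3 is an export adaptor and bears a zinc knuckle, also has a row under an older symbol. Its own row had 76.6, 63.2 and 75.9 FPKM in control macrophages, 11.2, 66.3 and 16.3 under LPS and 22.2, 33.0 and 23.9 under LPS+MIC-1. LPS libraries 1 and 3 were the lowest and LPS library 2 fell within the range of the controls. Sfrs7 varied less, from 8.88 to 13.8 FPKM over the 9 libraries. The Srsf7 row was 82.6 to 86.5% of the pair in the controls, 48.1, 84.3 and 61.4% under LPS and 65.3, 77.3 and 73.0% under LPS+MIC-1. Without LPS library 2 the control mean was 5.25-fold above LPS for the Srsf7 row and 3.42-fold above it for the pair.

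Srsf4, Srsf5 and Srsf6 encode the related proteins SRp75, SRp40 and SRp55, and among them Srsf6 and Srsf5 showed the larger gaps between control and LPS. Srsf6 had 90.7, 75.2 and 92.5 FPKM in the controls, 16.2, 74.9 and 19.8 under LPS and 51.3, 64.8 and 50.3 under LPS+MIC-1. Srsf5 had 135, 121 and 134 FPKM, then 39.7, 127 and 41.3, then 104, 106 and 105. For both genes the 3 LPS+MIC-1 libraries lay between LPS libraries 1 and 3 and the controls. Srsf4 had 33.5, 30.8 and 31.9 FPKM in the controls, 18.0, 30.3 and 15.3 under LPS and 19.8, 21.6 and 18.6 under LPS+MIC-1, so that LPS+MIC-1 lay just above LPS libraries 1 and 3.

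Srsf1, which directs U1 to the 5' splice site, and Srsf2, a marker of nuclear speckles, were lower under LPS and no higher under LPS+MIC-1. Srsf1 had 67.2, 47.6 and 68.8 FPKM in the controls, 27.9, 47.0 and 26.3 under LPS and 24.0, 30.1 and 23.3 under LPS+MIC-1. Srsf2 had 271, 226 and 273 FPKM, then 126, 223 and 128, then 99.7, 121 and 95.0. Its mean was the highest of the members in Control and LPS. Under LPS+MIC-1 it was level with Srsf5 (105.3 and 105.1 FPKM), with overlapping ranges. Srsf9, the short SR protein SRp30c, had 110.3, 99.2 and 107 FPKM in the controls, 62.9, 92.9 and 62.4 under LPS and 70.4, 78.6 and 62.1 under LPS+MIC-1. In all 3 genes the LPS+MIC-1 libraries lay below every control.

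Srsf11, an SR-related protein that contacts U2AF at the 3' splice site, was the exception. It had 43.8, 42.1 and 46.2 FPKM in the controls, 75.2, 40.7 and 75.1 under LPS and 41.4, 40.0 and 41.7 under LPS+MIC-1. LPS libraries 1 and 3 were its highest by a wide margin, and the LPS+MIC-1 libraries lay just below the controls. Its log2 difference for LPS minus Control was 0.47 with all 9 libraries and 0.77 without LPS library 2, and turned to -0.20 with all 9 libraries when each was scaled to the same FPKM sum.

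**Figure D2:**
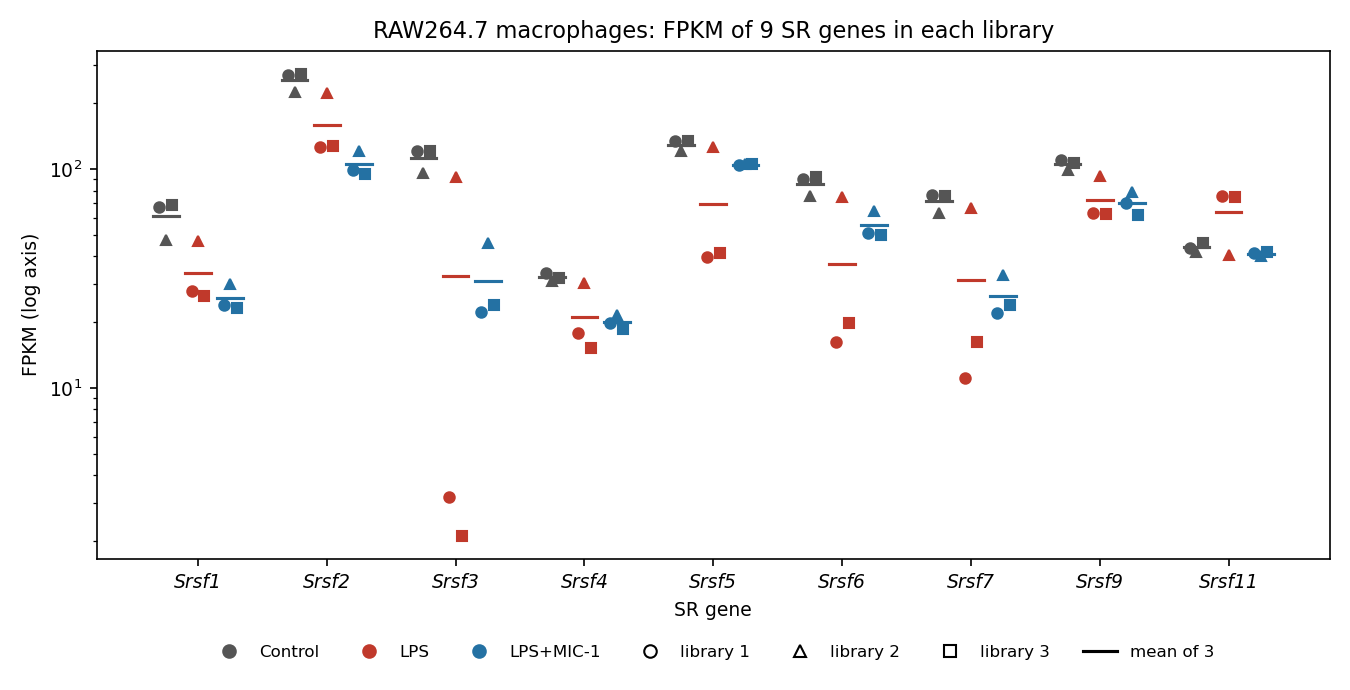
FPKM of the 9 SR genes in each of the 9 macrophage libraries, on log axes, with the group means as bars. LPS library 2 lies with the controls for every gene, and Srsf11 has 75.2 and 75.1 FPKM in LPS libraries 1 and 3, above its controls.

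Over the 9 genes the LPS minus Control difference in macrophages was lower than 0 for 8 and higher for Srsf11, with a median of -0.88 against -0.03 over all tested genes, and without LPS library 2 the median was -1.14 against -0.02. In that order the values without LPS library 2 were -5.18 for Srsf3, -2.37 for Srsf7, -2.23 for Srsf6, -1.67 for Srsf5, -1.14 for Srsf1, -1.01 for Srsf2, -0.93 for Srsf4, -0.75 for Srsf9 and 0.77 for Srsf11. As background, limma called 0% of genes higher and 0% lower with all 9 libraries (4928 genes at an unadjusted p below 0.05, smallest adjusted p 0.0777), and 36.9% higher and 38.2% lower without LPS library 2. Nothing is read from these for the members, since the contrast chose the set. Scaling every library to the same FPKM sum moved the median of all genes from -0.03 to -0.66 with all 9 libraries, with LPS libraries 1 and 3 summing to 1137530 and 1132900 FPKM and the other 7 to between 557136 and 652486.

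The comparison of LPS+MIC-1 against LPS asks what MIC-1 changed in stimulated cells. It shares its LPS libraries with LPS minus Control, the contrast that chose the set, so its calls are not independent of that choice. Low values in those libraries make a rise likelier here. With all 9 libraries, 0 of the 8 members other than Srsf3 passed limma's test at an adjusted p below 0.05, where 10.2% of genes were called higher and 11.4% lower. At an unadjusted p below 0.05 there were 2 of 8, Srsf2 with a log2 difference of -0.55 (limma adjusted p = 0.124) and Srsf11 with -0.57 (limma adjusted p = 0.101). Without LPS library 2, a setting chosen after seeing the data that leaves n = 2 for LPS, 4 of the 8 were called higher and 1 lower. Over all genes 34.0% were called higher and 34.1% lower. Srsf6 rose by 1.59 ± 0.148 log2 units (SE, limma adjusted p = 5.34e-05), Srsf5 by 1.36 ± 0.067 (limma adjusted p = 4.7e-06), Srsf7 by 0.92 ± 0.207 (limma adjusted p = 0.00509) and Srsf4 by 0.26 ± 0.0957 (limma adjusted p = 0.0415). Srsf11 fell by 0.86 on this scale (SE 0.0627, limma adjusted p = 1.69e-05), to the level of the controls. Srsf1 (-0.08), Srsf2 (-0.28) and Srsf9 (0.16) did not pass. When the 8 libraries were scaled to the same FPKM sum, 7 of the 8 were called higher and 0 lower, and the median of all genes moved from 0.01 to 0.75. The Srsf3 row stood 3.25 higher in LPS+MIC-1 than in LPS without that library and 1.62 higher with it, as a description.

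Against the controls, which that comparison shares with LPS minus Control, all 8 members lay lower in LPS+MIC-1 and 3 of 8 were called lower with all 9 libraries, where limma called 11.8% of genes higher and 13.0% lower. These were Srsf2 (-1.28 ± 0.231, limma adjusted p = 0.00736), Srsf1 (-1.22 ± 0.249, limma adjusted p = 0.0118) and Srsf9 (-0.59 ± 0.174, limma adjusted p = 0.0417). Srsf7 had a larger difference, -1.45, with a wider spread in the shared fit (limma adjusted p = 0.0957). Srsf4 (-0.67), Srsf6 (-0.63), Srsf5 (-0.30) and Srsf11 (-0.10) did not pass either. LPS library 2 is in neither group but widens the spread that the 3 groups share, and without it 7 of 8 were called lower, all but Srsf11 (limma adjusted p = 0.164), where 28.1% of genes were called higher and 32.2% lower. Srsf5, the member nearest to its control level among those 7, had a limma adjusted p of 0.00322. Scaling those 8 libraries to the same sum gave 8 of 8 called lower. The 3 calls were lost when every library of the 9 was scaled to the same sum (limma adjusted p from 0.0546 to 0.188).

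**Figure D3:**
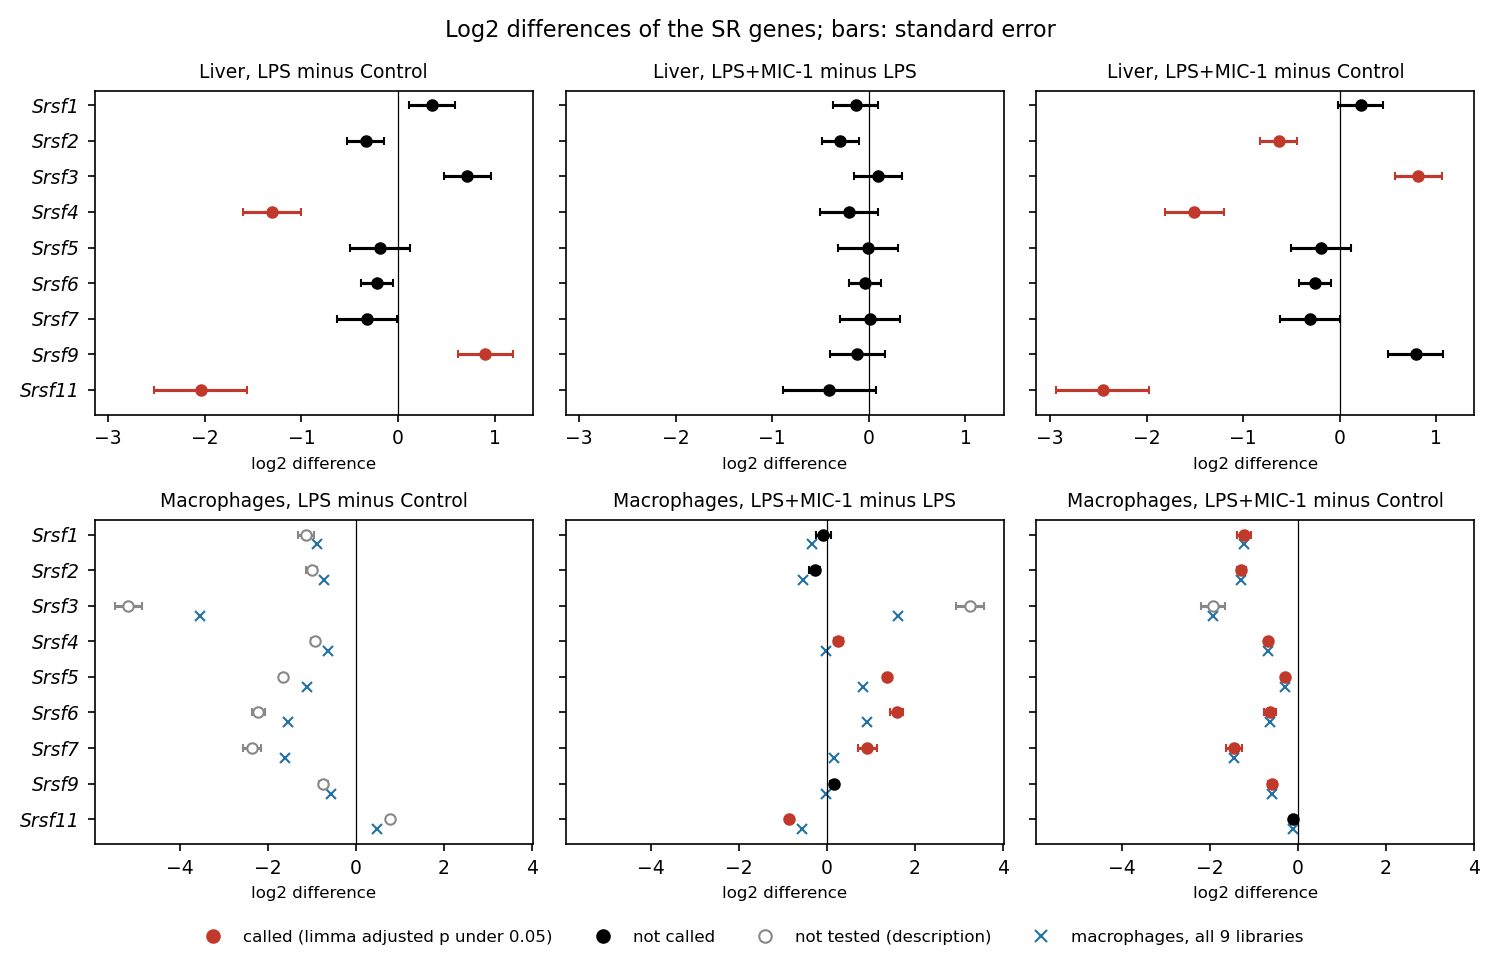
Log2 differences of the 9 SR genes for LPS minus Control, LPS+MIC-1 minus LPS and LPS+MIC-1 minus Control, in macrophages with all 9 libraries, in macrophages without LPS library 2, and in liver. Bars are standard errors, and the Srsf3 point for LPS minus Control lies at -3.55 and -5.18 in macrophages and at 0.72 in liver.

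In liver the SR genes had another order and another response. By FPKM Srsf11 was by far the most abundant member of control liver and was the one with the largest fall. Its annotation includes 7 protein-coding transcripts, 3 that are targets of nonsense-mediated decay and 5 with a retained intron. Which of them its row holds is not given in the sources used here. The Srsf11 row had 227, 299.6 and 287 FPKM in the controls, 59.0, 118 and 39.3 under LPS and 39.0, 94.4 and 31.4 under LPS+MIC-1. Every LPS and LPS+MIC-1 library lay below every control, and library 2 of both treatments was the highest of its group. The means were 271 ± 39.2, 71.9 ± 40.7 and 54.9 ± 34.4 FPKM (SD, n = 3). The log2 difference was -2.04 ± 0.482 for LPS minus Control (limma adjusted p = 0.0148) and -2.45 ± 0.482 for LPS+MIC-1 minus Control (limma adjusted p = 0.00723).

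Srsf4 behaved likewise. It had 27.8, 56.6 and 57.4 FPKM in the controls, 15.7, 23.3 and 15.7 under LPS and 16.97, 13.9 and 15.7 under LPS+MIC-1. Control library 1 lay closer to the highest treated library than to the other controls, and the controls did not overlap with either treated group. The difference was -1.30 ± 0.302 with LPS (limma adjusted p = 0.0139) and -1.51 ± 0.302 under LPS+MIC-1 (limma adjusted p = 0.00763).

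Srsf9 and Srsf3 had higher means in the treated livers. Srsf9 had 17.6, 11.3 and 8.85 FPKM in the controls, 26.3, 16.6 and 28.1 under LPS and 22.4, 19.8 and 21.6 under LPS+MIC-1, with LPS library 2 inside the range of the controls. It rose by 0.90 ± 0.283 with LPS (limma adjusted p = 0.0384), and its value of 0.79 under LPS+MIC-1 missed the threshold (limma adjusted p = 0.0586). The Srsf9 call with LPS was lost with only the 2 groups in the fit (limma adjusted p = 0.0871) and with libraries scaled to the same sum (0.55, limma adjusted p = 0.112).

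The Srsf3 row in liver had 10.9, 14.4 and 13.0 FPKM in the controls, 22.0, 14.9 and 28.9 under LPS and 20.4, 23.8 and 23.9 under LPS+MIC-1. All treated libraries lay above all controls, LPS library 2 by the smallest margin. With LPS the difference of 0.72 ± 0.245 missed the threshold (limma adjusted p = 0.0505), and without LPS library 2 it was 0.97 and passed (limma adjusted p = 0.00581). With LPS+MIC-1 it rose by 0.81 ± 0.245 (limma adjusted p = 0.032), a call that was lost on leaving out any 1 of the Control or LPS+MIC-1 libraries (limma adjusted p from 0.0596 to 0.0987) and with scaling to the same sum (0.18, limma adjusted p = 0.631). The Sfrs3 row was at 4.96, 2.98 and 9.64 FPKM in the controls, 4.51, 2.94 and 4.84 under LPS and 4.73, 0.717 and 4.74 under LPS+MIC-1, groups that overlapped throughout. With both rows added, the differences were 0.44 (limma adjusted p = 0.189) and 0.49 (limma adjusted p = 0.152).

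Srsf2 had 113, 103 and 99.9 FPKM in control liver, 92.5, 66.3 and 94.5 under LPS and 72.0, 60.02 and 71.8 under LPS+MIC-1. Its LPS libraries lay below all controls but the difference of -0.33 did not pass (limma adjusted p = 0.193), and under LPS+MIC-1 it fell by 0.63 (SE 0.191, limma adjusted p = 0.0316), a call that was also lost on leaving out any 1 Control or LPS+MIC-1 library (limma adjusted p from 0.0519 to 0.0809). Srsf1 had 14.8, 12.8 and 12.9 FPKM in the controls, 20.8, 11.7 and 21.3 under LPS and 16.0, 15.1 and 16.0 under LPS+MIC-1. LPS library 2 was the lowest of the 9 and libraries 1 and 3 were the highest, so that the difference of 0.35 did not pass with all libraries (limma adjusted p = 0.263) and without library 2 was 0.63 (limma adjusted p = 0.00841).

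Srsf5, Srsf6 and Srsf7 passed no test in liver with the deposited scaling, in any of the 3 comparisons. When the libraries were scaled to the same FPKM sum, Srsf5 (-0.85, limma adjusted p = 0.0395) and Srsf6 (-0.90, limma adjusted p = 0.00976) were called lower in LPS+MIC-1 than in Control. Srsf5 ranged from 44.4 to 69.8 FPKM in the controls, 38.2 to 51.7 under LPS and 28.8 to 58.0 under LPS+MIC-1. Srsf6 ranged from 37.1 to 49.8, 34.6 to 40.7 and 36.2 to 37.9. Srsf7 ranged from 6.35 to 14.1, 6.44 to 8.07 and 5.23 to 9.73. Their LPS minus Control differences were -0.18 to -0.32. The Sfrs7 row, with 10.5, 14.3 and 15.5 FPKM in the controls, 5.80, 7.04 and 10.1 under LPS and 5.68, 3.98 and 7.66 under LPS+MIC-1, fell by 1.18 under LPS+MIC-1 (limma adjusted p = 0.0149), and the sum of Srsf7 and Sfrs7 fell by 0.73 (limma adjusted p = 0.0383).

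**Figure D4:**
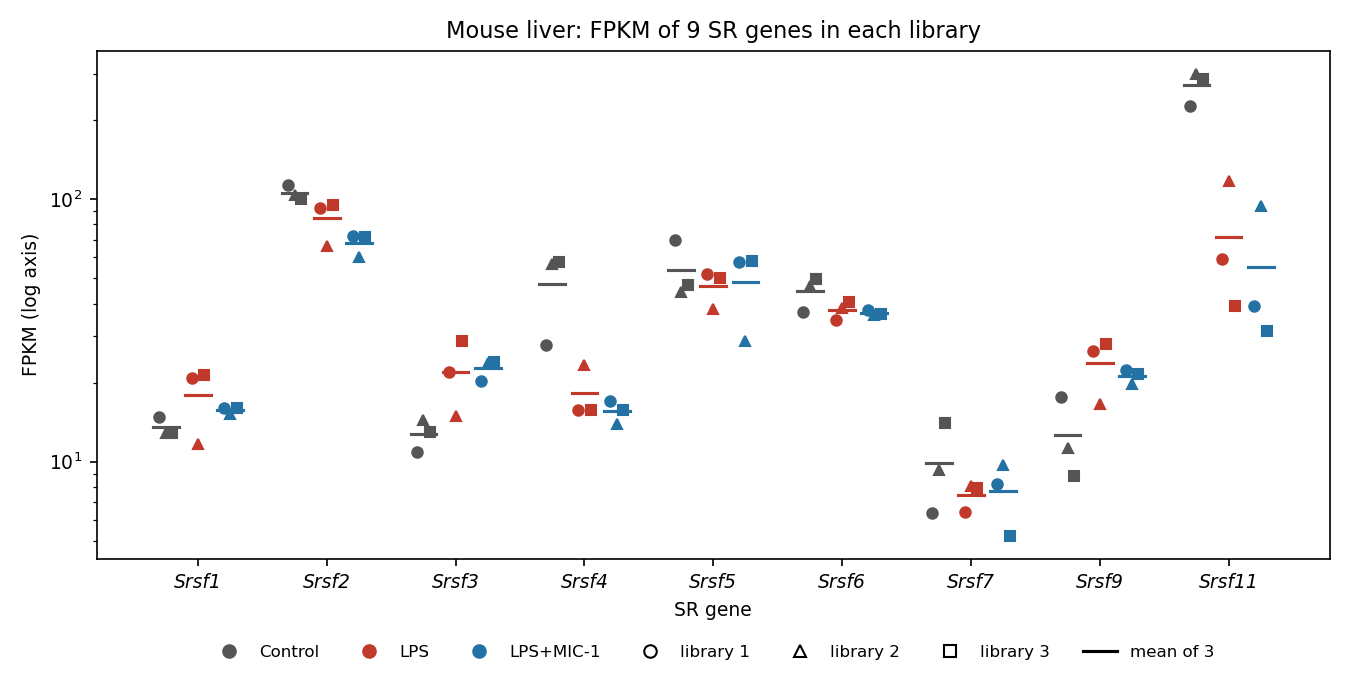
FPKM of the 9 SR genes in each of the 9 liver libraries, on log axes, with the group means as bars. Srsf11 falls from 227 to 299.6 FPKM in the controls to between 31.4 and 118 in the treated libraries, and Srsf3 has 10.9 to 14.4 FPKM in the controls and 14.9 to 28.9 in the treated libraries.

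In counts, LPS against control in liver gave 1 of 9 members higher (Srsf9) and 2 lower (Srsf4 and Srsf11), where limma called 19.2% of genes higher and 15.5% lower. The share of members called was thus near the background. The median over the members was -0.22 against 0.15 over all genes. The 3 calls became 0 without Control library 2, LPS library 1 or LPS library 3, 1 without Control library 3, 2 without LPS+MIC-1 library 2 and 5 without LPS library 2, which added Srsf1 and Srsf3. LPS+MIC-1 against control, with the same controls, gave 1 higher (Srsf3) and 3 lower (Srsf2, Srsf4 and Srsf11), where 20.1% of genes were called higher and 16.3% lower. These 4 calls became 2 on leaving out Control library 2 or 3 or any LPS+MIC-1 library, and 5 without LPS library 2. Scaling to the same sum moved the median of all genes from 0.15 to -0.19 for LPS and from 0.15 to -0.45 for LPS+MIC-1, and with it the members called were 0 higher and 3 lower for LPS and 0 higher and 5 lower for LPS+MIC-1. Srsf4 and Srsf11 were called lower under both scalings.

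LPS+MIC-1 against LPS in liver gave 0 of 9 members by limma, and 0 of 9 at an unadjusted p below 0.05. Over all genes 0% were called higher and 0% lower, with 364 at an unadjusted p below 0.05 and a smallest adjusted p of 0.0546. The member differences ran from -0.41 for Srsf11 to 0.09 for Srsf3. The standard error of the difference was 0.245 for Srsf3 and 0.482 for Srsf11, so that differences of that order could not be told from 0 with these libraries.

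The makeup of the family, each gene's part of the summed FPKM of all 9, does not depend on the scaling between libraries. The parts below count only the rows under the current symbols. In macrophage LPS libraries 1 and 3 the Srsf3 row was only 14.4 and 9.06% of its pair with Sfrs3. In macrophages Srsf3 made up 12.8, 12.0 and 12.8% in the controls, 0.837, 11.6 and 0.549% under LPS and 4.87, 8.55 and 5.41% under LPS+MIC-1, while Srsf11 made up 4.61, 5.26 and 4.86%, then 19.8, 5.12 and 19.5%, then 9.10, 7.39 and 9.39%. In LPS libraries 1 and 3 Srsf11 therefore took a larger part of the family than in any other macrophage library. In liver Srsf11 made up 43.2, 50.1 and 48.7% of the family in the controls, 17.9, 35.1 and 12.0% under LPS and 13.4, 31.3 and 11.2% under LPS+MIC-1. Srsf3 made up 2.07, 2.40 and 2.20% in control liver, 6.69, 4.44 and 8.84% under LPS and 7.01, 7.88 and 8.54% under LPS+MIC-1. For the Srsf3 share the controls and the treated libraries did not overlap. The same held for the shares of Srsf1, Srsf6 and Srsf9, also higher, and of Srsf11, lower. The summed FPKM of the 9 genes averaged 571 in the controls, 330 under LPS and 291 under LPS+MIC-1. A share could thus rise without a rise in FPKM. With LPS, Srsf6 went from 7.77 to 11.5% of the sum while its mean went from 44.49 to 37.95 FPKM. Only the Srsf3 share was tested. Its means were 2.23% in the controls, 6.66% under LPS and 7.81% under LPS+MIC-1. The treated groups exceeded the controls by 4.43 and 5.58 percentage points, and an exact permutation test gave p = 0.1 for each, two-sided, the smallest that 3 against 3 can give (0.15 adjusted over the 3 comparisons). LPS+MIC-1 exceeded LPS by 1.15 points (exact permutation p = 0.5), and by 0.0426 to 2.24 points with 1 library left out.

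**Figure D5:**
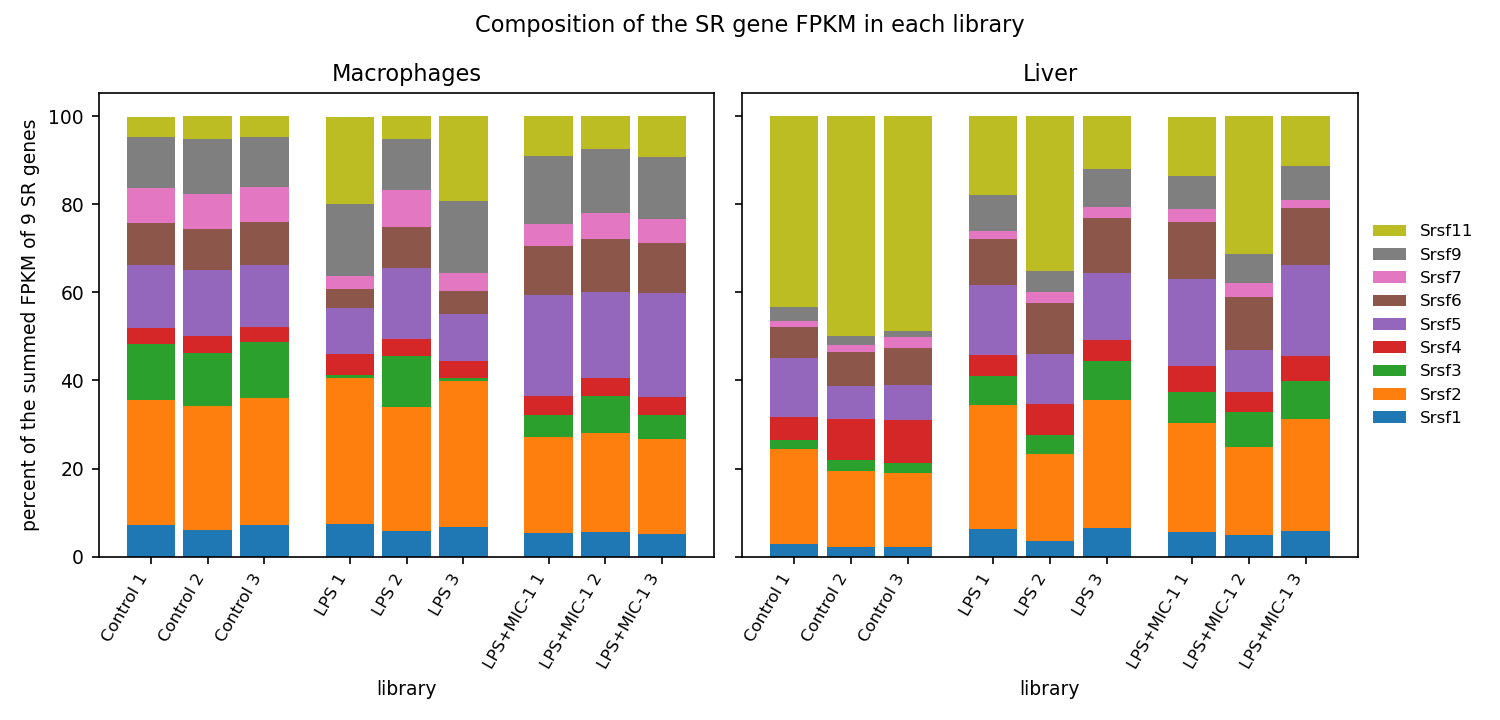
Percent of the summed FPKM of the 9 SR genes taken by each gene, as stacked bars for each macrophage and liver library. Srsf11 takes 43.2 to 50.1% of control liver and 4.61 to 5.26% of control macrophages.

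The order of the levels also differed. In control macrophages it ran Srsf2, Srsf5, Srsf3, Srsf9, Srsf6, Srsf7, Srsf1, Srsf11, Srsf4, from 257 to 32.1 FPKM, and the ranges of the libraries overlapped between Srsf5 and Srsf3, Srsf3 and Srsf9, Srsf6 and Srsf7, and Srsf7 and Srsf1. With LPS, without library 2, Srsf11 moved to the second place (75.2 FPKM) behind Srsf2 (127), and the Srsf3 row to the last. With the Sfrs3 row added, Srsf3 stood at 22.8 FPKM there, above Srsf6 (18.0) and Srsf4 (16.6). In control liver it ran Srsf11, Srsf2, Srsf5, Srsf4, Srsf6, Srsf1, Srsf3, Srsf9, Srsf7, from 271 to 9.91 FPKM, with only the steps from Srsf11 to Srsf2, Srsf2 to Srsf5 and Srsf6 to Srsf1 free of overlap. The Srsf7 row was last in control liver, but with the Sfrs7 row added Srsf7 stood at 23.35 FPKM, above Srsf1 (13.5). With LPS in liver Srsf2 (84.4) stood before Srsf11 (71.9), and their ranges overlapped. The 2 tables were normalised separately, so the orders, and not the levels, are set side by side.

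The genes whose profile was most like that of Srsf3 were found by the root mean square difference of gene-centred log2 values over the 9 libraries of a table, as a description. In macrophages they were Cdc6 (0.553), a replication licensing factor, AI506816 (0.568), Sfpq (0.607), a paraspeckle RNA-binding protein, Fbxo5 (0.642), an inhibitor of the anaphase-promoting complex, and Rbm10 (0.651), a splicing regulator. Sfpq had 75.6, 65.6 and 75.7 FPKM in the controls, 3.74, 62.9 and 4.70 under LPS and 13.4, 19.8 and 14.5 under LPS+MIC-1, lowest in LPS libraries 1 and 3 and next lowest in the LPS+MIC-1 libraries, as for Srsf3. Of the members, Srsf7 ranked 192 and Srsf6 238 of 9904 genes in likeness, and Srsf11 7489. In liver the closest were Ubfd1 (0.11), Psmd9 (0.111), a proteasome assembly factor, Rce1 (0.117), a CAAX protease, Fam173b (0.124) and Hnrnpm (0.125), an hnRNP, and Srsf1 ranked 907 of 10146. The cell cycle list holds none of these closest genes, but it does hold Plk1, Cdc20 and Ccnb2. In macrophages its 22 genes had medians of -2.95, -0.15 and -3.16 from control in LPS 1 to 3 and -3.08, -2.45 and -3.14 in LPS+MIC-1 1 to 3. Their part in the Srsf3 values was not tested.

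Around the SR genes, the other parts of the splicing machinery were counted by lists, beside shares over all genes of 19.2% higher and 15.5% lower. In liver with LPS, 10 of 27 tested genes of other SR and SR-related proteins were called lower and 0 higher, among them Rsrc2 (-1.59, limma adjusted p = 0.000876) and Luc7l2, a U1-associated protein (-1.74, limma adjusted p = 0.00335), with a list median of -0.67 against 0.15 over all genes. Among the hnRNPs 6 of 23 were called higher and 0 lower, with a median of 0.71. This rested on LPS libraries 1 and 3. Over the 25 hnRNP rows the median log2 difference from control was 0.946, 0.158 and 0.886 in LPS 1 to 3. The summed FPKM of LPS library 2, 563, lay within the control range of 452 to 569. List counts are given for the deposited scaling only. Hnrnpa1, a repressor of exon inclusion, rose by 2.92 (limma adjusted p = 0.000637) and Hnrnpa3 by 0.74 (limma adjusted p = 0.0146). The core spliceosome was mixed, with 9 of 40 higher, such as Plrg1 (1.91, limma adjusted p = 0.00179), and 5 lower, such as Sf1, which binds the branch point (-1.08, limma adjusted p = 0.00414). Of 13 kinase, import and export genes 3 were higher and 4 lower, with Clk1, an SR protein kinase, falling by 1.54 (limma adjusted p = 0.0132) and Ppp1r8, a nuclear phosphatase subunit, rising by 2.53 (limma adjusted p = 0.0142) from a control mean of 0.693 FPKM. Of 12 genes of nonsense-mediated decay and the exon junction complex, Eif4a3 rose by 1.13 (limma adjusted p = 0.0132), and Upf3b and Smg6 fell by 1.66 and 0.77 (limma adjusted p = 0.0127 and 0.0137).

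With LPS+MIC-1 against control in liver the calls on the same lists were 0 higher and 15 lower of 27, 6 and 0 of 23 hnRNPs, 8 and 7 of 40 core genes, 3 and 4 of 13, and 1 and 6 of 12, where 20.1% of all genes were called higher and 16.3% lower. Srrm1, a splicing coactivator, fell by 1.31 (limma adjusted p = 0.00166) and Clk1 by 1.81 (limma adjusted p = 0.00709). LPS+MIC-1 against LPS gave 0 calls on every one of these lists by limma. Its lowest unadjusted p on the SR-related list was that of Srrm1 (-0.38, limma adjusted p = 0.997).

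In macrophages with all 9 libraries, LPS against control gave 0 calls on all of these lists, as over all genes. Without LPS library 2 the SR-related list was split, with 12 of 28 higher and 12 lower, where 36.9% of all genes were called higher and 38.2% lower. Srsf10, an SR protein that acts as a repressor when dephosphorylated, fell by 1.76 (limma adjusted p = 9.14e-06) and U2af1l4 rose by 0.78 (limma adjusted p = 1.81e-05). Of the 25 hnRNPs 3 were higher and 18 lower, with Hnrnpl falling by 1.52 (limma adjusted p = 3.19e-06). Of the 40 core genes 2 were higher and 24 lower, with Sf3b3 and Sf3a3, of the U2 particle, falling by 1.78 and 1.35 (limma adjusted p = 4.09e-06 and 3.66e-06). Of the 15 kinase, import and export genes 5 were higher and 7 lower. Clk4 and Clk3, SR protein kinases, rose by 3.02 and 1.27 (limma adjusted p = 6.27e-06 and 3.71e-06), Ppp1r8 fell by 2.60 (limma adjusted p = 6.93e-06) and Thoc4, the export factor also named Alyref, fell by 2.11 (limma adjusted p = 2.17e-05). Of the 12 decay and exon junction genes 9 were higher, among them Smg6 (0.79), and Eif4a3 fell by 1.34 (limma adjusted p = 6.66e-06).

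LPS+MIC-1 against LPS in macrophages gave 1 higher and 6 lower of the 28 SR-related genes with all 9 libraries, and 9 and 13 without LPS library 2. For the hnRNPs the calls were 1 and 7, then 11 and 8, for the core spliceosome 0 and 10, then 15 and 15, for the kinase, import and export list 0 and 1, then 5 and 6, and for decay and the exon junction 1 and 4, then 2 and 9. Over all genes the calls were 10.2% higher and 11.4% lower with all 9 libraries, then 34.0% and 34.1%. Without that library Srsf10 rose by 1.04 (limma adjusted p = 0.000182) and Ppp1r8 by 2.06 (limma adjusted p = 3.18e-05), and Clk4 and Clk3 fell by 1.67 and 0.81 (limma adjusted p = 0.000166 and 4.11e-05). Against control, LPS+MIC-1 gave 0 higher and 5 lower of the 28 SR-related genes, 0 and 9 of the hnRNPs, 0 and 15 of the core genes, 0 and 3 of the kinase list and 1 and 1 of the decay list with all 9 libraries, where 11.8% of all genes were called higher and 13.0% lower. Without LPS library 2 the same lists gave 1 and 16, 0 and 23, 1 and 31, 3 and 7, and 1 and 5, where 28.1% of all genes were called higher and 32.2% lower. With all 9 libraries Hnrnpa3 fell by 0.88 (limma adjusted p = 0.0024), Snrpg, a core small nuclear ribonucleoprotein subunit, fell by 1.40 (limma adjusted p = 0.00061), and Magohb, of the exon junction complex, rose by 1.10 (limma adjusted p = 0.00159). In the macrophages, a cultured line, S100a8 brought the neutrophil list to sums of 654 to 721 FPKM under LPS+MIC-1, against 2.34 to 3.51 in the controls. S100a9 was at or under 0.482 FPKM and Mpo at or under 0.0281 in every macrophage library. What raised S100a8 was not tested.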

How the data were processed

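RNA-seq was measured in 18 mouse libraries, 9 of RAW264.7 cells and 9 of liver. The FPKM values are those the authors deposited, 1 table per tissue: reads were quantified with kallisto 0.45.0 against RefSeq transcripts of mm9, summarised to genes and scaled by size factors in DESeq2 1.20.0. The 6 deposited tables of fold changes and p-values hold the authors' own comparisons and were not used.

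Genes whose FPKM averaged more than 1 across a table's libraries (9905 in macrophages, 10147 in liver, with 9 of 9 members in both) were tested on log2(FPKM + 0.5) with limma 3.58.1 in R 4.3.3. The 3 groups of a table entered 1 fit with eBayes and a trend, p-values were adjusted by the Benjamini-Hochberg method over all tested genes, and a call is an adjusted p below 0.05. No call on members was made for LPS minus Control in macrophages, and Srsf3 was left out of the macrophage counts. Shares were compared with exact permutation tests (scipy 1.17.1). Scripts were tested on simulated data. The members and the lists were chosen with earlier results of these data known. Besides the members, the genes named are the 5 most like Srsf3 per table and, per list and direction, the 2 with the smallest p, among called genes where there are any; Plk1, Cdc20 and Ccnb2 (next in rank to Srsf3) and the marker genes were named after their values were seen. Some genes that this rule names are not reported here.

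Depth was estimated from the steps between low FPKM values (about 18.1 to 23.4 M reads in macrophages and 4.63 to 19.3 M in liver) and limits the precision of low genes. The alternatives were other scalings, pseudocounts of 0.1 and 1, no filter, no trend, 2 groups per fit, the thresholds of the study, close libraries averaged, each library left out, a correction for length and GC content (values for 95.7% of genes tested in liver and 96.2% in macrophages) and rows of older symbols added.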

Additional observations from a re-analysis of the deposited data

Results flagged for a closer look

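For the genes below, every library of one tissue lay above its reference mean and every library of the other below, and the difference between the tissues was not tested. The values of Srsf3 in macrophages chose that gene. The log2 difference of Srsf3 for LPS minus Control was 0.72 in liver and -3.55 in macrophages, 4.27 apart, and for LPS+MIC-1 minus Control it was 0.81 and -1.93, 2.74 apart. Srsf9 stood at 0.90 in liver and -0.56 in macrophages for LPS minus Control, 1.46 apart, and at 0.79 and -0.59 for LPS+MIC-1 minus Control, 1.37 apart. Srsf1 stood at 0.21 and -1.22 for LPS+MIC-1 minus Control, 1.43 apart. Srsf6 stood at -0.04 in liver and 0.92 in macrophages for LPS+MIC-1 minus LPS, a liver minus macrophage value of -0.95. The libraries were normalised separately in the 2 tissues, and the LPS dose and duration of the cultures are not given in the sources used here.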

How the results depend on the processing

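No paired analysis was possible because the columns of the tables carry no replicate numbers. With 3 libraries per group, 1 library often decided a call, and low depth in the liver controls limits the low genes there. Leaving out 1 library at a time gave 0 to 5 members called for liver LPS minus Control, 2 to 5 for liver LPS+MIC-1 minus Control, 0 to 5 for macrophage LPS+MIC-1 minus LPS and 1 to 7 for macrophage LPS+MIC-1 minus Control, and a median of -1.14 to -0.73 for macrophage LPS minus Control. Leaving out macrophage LPS library 2 gave the 5 and the 7, and macrophage LPS+MIC-1 minus Control gave 1 without Control 1 or 3 or LPS+MIC-1 1 or 3. Removing the length and GC trend gave 5 calls for liver LPS minus Control. The thresholds of the study gave 2 calls for liver and 1 for macrophage LPS+MIC-1 minus Control. The latter count was 7 with only the 2 groups in the fit, 0 with the same FPKM sum in every library and 0 with libraries 1 and 3 averaged. The same sum moved the macrophage LPS minus Control median to -1.55. It also moved the share of calls that were higher from 55.3% to 30.5% (liver LPS minus Control), 55.2% to 17.1% (liver LPS+MIC-1 minus Control) and 47.2% to 77.9% (macrophage LPS+MIC-1 minus LPS), and without LPS library 2 from 49.1% to 13.9%, 49.9% to 86.8% and 46.5% to 32.3% for macrophage LPS minus Control, LPS+MIC-1 minus LPS and LPS+MIC-1 minus Control. The cause of these shifts was not tested.

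Members that turned sign had not passed the test with all libraries. Under the same sum these were Srsf1 (-0.0025 and -0.42) in liver LPS and LPS+MIC-1 minus Control, Srsf3 (-0.19) and Srsf7 (-0.26) in liver LPS+MIC-1 minus LPS, and Srsf1 (0.14), Srsf4 (0.45) and Srsf9 (0.46) in macrophage LPS+MIC-1 minus LPS. With the length and GC trend removed Srsf6 (0.0090) in liver and Srsf9 (0.27) in macrophages turned, with rows of older symbols added Srsf7 (-0.14 in liver, -0.010 in macrophages), and with libraries 1 and 3 averaged Srsf7 (-0.12), all for LPS+MIC-1 minus LPS. With 1 library left out, the ranges that crossed 0 were, in liver, -0.31 to 0.017 for Srsf5 under LPS minus Control and -0.37 to 0.13 under LPS+MIC-1 minus Control. For liver LPS+MIC-1 minus LPS they were -0.41 to 0.011 for Srsf1, -0.15 to 0.31 for Srsf3, -0.18 to 0.32 for Srsf5, -0.10 to 0.014 for Srsf6, -0.17 to 0.25 for Srsf7, -0.35 to 0.020 for Srsf9 and -0.88 to 0.018 for Srsf11. For macrophage LPS+MIC-1 minus LPS they were -0.22 to 0.26 for Srsf4, -0.34 to 0.92 for Srsf7 and -0.13 to 0.16 for Srsf9. In liver the share of Srsf3 kept its direction in 21 of 21 settings, down to 0.0426 points for LPS+MIC-1 minus LPS. Against control the shares did not overlap, so leaving out 1 library could not have turned the direction there. Leaving out macrophage LPS library 2 beside every result, and adding older rows, were chosen after seeing the data.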
